A study of Mus musculus with 6 samples.

Results

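The cytosolic ribosomal protein genes were described here from the open-chromatin peaks at their ends. Members were the autosomal protein-coding genes of a GRCm38 gene table whose symbol is Rpl or Rps followed by a number and at most 1 letter or letter L, or Rplp followed by a number, or Rpsa, without the S6 kinase genes (Rps6k). This gave 78 of 20665 autosomal protein-coding genes, of which 45 encode large-subunit proteins (Rpl), 30 encode small-subunit proteins (Rps and Rpsa) and 3 encode the ribosomal stalk (Rplp0, Rplp1 and Rplp2). Rpl10, Rpl36a, Rpl39 and Rps4x, which lie on the X chromosome, and genes with longer symbols such as Rps3a1 and Rpl22l1 were outside the rule.

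ATAC-seq, which tags accessible DNA with the transposase Tn5, was carried out on 6 libraries of mouse blood monocytes made from 50000 permeabilised cells each. Libraries DTR1 to DTR3 came from PF4cre-iDTR mice, which the labels call thrombocytopenic, and libraries WT1 to WT3 from mice of genotype WT. Both genotypes received diphtheria toxin, so the groups differ in genotype under the same toxin treatment. In the PF4cre-iDTR model the Pf4 promoter, active in megakaryocytes, drives Cre, and Cre switches on a diphtheria toxin receptor, so that toxin removes platelets and their precursors. The labels give no age or sex, and they do not say whether the libraries of a group came from separate or pooled animals, so each p-value measures only the spread between these libraries, which may be technical.

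Each ribosome carries 1 copy of nearly every ribosomal protein, so cells make these proteins in closely matched amounts, and their genes are among the most heavily transcribed of any cell. The genes are short, lack tissue-restricted control for the most part, and begin transcription at a cytosine followed by a run of pyrimidines. That run, the terminal oligopyrimidine (TOP) tract, lets the mTOR pathway switch translation of the whole set up and down with growth conditions. Many of their introns hold small nucleolar RNAs (snoRNAs), which guide chemical modification of ribosomal RNA.

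The authors' peak lists, called per library, held 77867 to 84029 broad peaks each, and the read depth behind them is unknown, since the files give no counts. For each gene the highest fold and the widest peak were taken among peaks within 1 kb of either gene end. The fold is the authors' own value, the enrichment of a peak over the caller's background. Across the 12546 genes with such a peak in all 6 libraries, DTR libraries had a median fold of 7.31 ± 0.0799 (SD, n = 3) and a median width of 1017 ± 23.7 bp. WT libraries had 7.35 ± 0.143 and 971 ± 34.2 bp. Monocyte genes fixed as markers (Csf1r, Spi1, Ly6c2, Ccr2 and 6 others) had a peak in all 6 libraries in 10 of 10 cases. Such a peak was also found at 5 of 5 dendritic cell markers, at 4 of 6 erythroid and 4 of 8 neutrophil markers, and at 2 markers each of B cells (of 5), macrophages (of 5), the platelet lineage (of 6) and lymphocytes of the T and NK kind (of 7). No marker gene passed the test between DTR and WT for fold or width.

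Ribosomal protein genes were nearly all open in every library. A gene-end peak was present in all 6 libraries at 73 of 78 members (93.6%), against 60.7% of all autosomal protein-coding genes. The other 5 members (Rpl10l, Rpl17, Rpl32l, Rpl39l and Rps2) had a gene-end peak in no library, against 35.3% of all genes. No member had a peak in only some libraries. Across all genes, a peak in all 3 DTR libraries and in no WT library was found at 0.135%, and the opposite at 0.0194%; neither kind included a member. These 28 and 4 genes became 14 and 20 when all lists were shortened to equal length, which turned the direction. A gene-end peak therefore separated the members into always and never, in both genotypes.

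Rps2 and Rpl17 were open inside the gene. Rps2 encodes a protein beside the mRNA entry channel of the small subunit, and Rpl17 one that lines the exit of the peptide tunnel in the large subunit. Rps2 had a peak inside its annotated span with a fold of 6.70, 6.71 and 6.92 in DTR1 to DTR3 and 6.82, 7.23 and 7.73 in WT1 to WT3. Rpl17 had one with a fold of 10.2, 9.30 and 9.46 in DTR and 9.53, 9.51 and 9.94 in WT. Group values overlapped for both genes. In the table used, both genes extend more than 1 kb beyond the open region on either side. Counting peaks in or within 1 kb of the gene, 75 of 78 members were open in all 6 libraries.

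The 3 members with no peak in or near the gene in any library were Rpl10l, Rpl39l and Rpl32l. Rpl10l and Rpl39l are paralogs of X-linked Rpl10 and Rpl39 known for expression in testis. Rpl3l, the muscle paralog of Rpl3, was a further case: its gene-end peak, with a mean fold of 5.08, also touched the window of the neighbouring gene Msrb1, and neither of the 2 annotated Rpl3l starts lay inside a peak. The paralogs that many tissues express differed from these. Rps27l, a paralog of Rps27 known as a p53 target, had a fold of 10.7, 10.3 and 10.5 in DTR and 10.5, 10.1 and 10.8 in WT. Rpl36al, a paralog of X-linked Rpl36a, had a fold of 7.66, 7.77 and 7.64 in DTR and 8.02, 8.22 and 7.92 in WT. Rpl36al was lower in each DTR library than in any WT library, while the Rps27l groups overlapped.

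Start sites give a second view of the same genes. The RefSeq promoter table (GRCm38.p6) matched 58 of 78 members, and 54 of these 58 (93.1%) had an annotated start inside a peak in all 6 libraries, against 55.7% of the 16457 autosomal protein-coding genes in the table. The 4 without one were Rpl10l, Rpl32l, Rpl39l and Rpl3l. These 4 open promoters are shown because their annotated start carries a TOP tract, the feature that these genes are known for: Rps6, whose protein is the target of the S6 kinases, Rps10, Rplp2 and Rpl28. Each sequence covers 80 bases before and 20 bases from the annotated start, 5′ to 3′ on the gene's strand, and capitals mark the cytosine at the start and the pyrimidines that follow it. The positions are chr4:86857348-86857447 (minus strand) for Rps6, chr17:27635225-27635324 (minus strand) for Rps10, chr7:141447571-141447670 (plus strand) for Rplp2 and chr7:4792885-4792984 (plus strand) for Rpl28.
Rps6: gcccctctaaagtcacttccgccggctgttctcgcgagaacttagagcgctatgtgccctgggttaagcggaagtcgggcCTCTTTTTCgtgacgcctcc
Rps10: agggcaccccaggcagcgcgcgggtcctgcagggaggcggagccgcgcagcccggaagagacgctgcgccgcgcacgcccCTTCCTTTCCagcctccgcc
Rplp2: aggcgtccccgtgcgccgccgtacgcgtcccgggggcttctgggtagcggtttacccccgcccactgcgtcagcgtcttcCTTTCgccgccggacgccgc
Rpl28: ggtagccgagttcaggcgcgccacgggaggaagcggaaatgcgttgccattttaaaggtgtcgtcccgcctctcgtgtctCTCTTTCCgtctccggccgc

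A cytosine followed by at least 4 pyrimidines stood at the annotated start of 24.1% of the 54 open members and of 2.80% of the 9167 genes with an open start. Allowing the start to shift by up to 5 bases, the shares were 50% and 23.7%. A cytosine followed by at least 7 pyrimidines within 50 bases of the start, a measure chosen after the sequences were seen, was found in 87.0% of open members and 31.1% of open genes. These are letters in a window around annotated starts, which can miss the start used in monocytes by several bases.

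The motif of ETS factors such as GABP, CCGGAAG on either strand, was found in the 300-base promoter of 42.6% of open members against 21.4% of all promoters with an open start. Another 4 promoters, which hold it, are shown, with the motif in capitals, because they place it differently: Rpl26, where it begins 4 bases after the start, Rpl38, where it begins 20 bases before it, Rps18 and Rpl15. Rpl26 encodes a protein that also binds p53 mRNA, and Rpl38 one that is needed for translation of Hox mRNAs in the embryo. Their positions are chr11:68901486-68901585 (plus strand) for Rpl26, chr11:114668500-114668599 (plus strand) for Rpl38, chr17:33955646-33955745 (minus strand) for Rps18 and chr14:18270967-18271066 (minus strand) for Rpl15.
Rpl26: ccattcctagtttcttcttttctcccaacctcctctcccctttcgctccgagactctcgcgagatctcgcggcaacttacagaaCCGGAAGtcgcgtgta
Rpl38: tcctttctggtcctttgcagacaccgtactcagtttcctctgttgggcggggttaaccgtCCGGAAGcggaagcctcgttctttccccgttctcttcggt
Rps18: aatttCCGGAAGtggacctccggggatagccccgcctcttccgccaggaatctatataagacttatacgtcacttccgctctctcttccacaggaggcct
Rpl15: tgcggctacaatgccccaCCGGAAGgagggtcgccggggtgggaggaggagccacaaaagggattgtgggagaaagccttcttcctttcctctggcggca

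Other motifs, searched on both strands, differed less or in the other direction. The YY1 motif AAGATGGC was in 9.26% of open members and in 5.42% of all open genes, and the palindrome of NRF1 in 3.70% and 2.48%. The SP1 motif GGGCGG was found in 61.1% of open members, below the 71.2% of all open genes. The NFY box, CCAAT, was likewise rarer in members, with 33.3% against 43.3% of all open genes. Members and all open genes were within 2 percentage points of each other for the E-box CACGTG, which was present in 11.1% and 12.2% of these promoters. The same held for the TATA box, searched as TATAAA, with 7.41% of open members and 8.37% of all open genes. The median GC content of member promoters was 56.8%, against 56.7% for all promoters and 61.3% for open ones.

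The start regions of the 3 members with no peak, and of Rps2, whose start lay in the peak inside its table span, are shown for comparison. Capitals mark the pyrimidine run that begins with a cytosine at or within 5 bases of the start, where there is one. Rpl32l (chr10:20208359-20208458, plus strand) carries such a run although no library had a peak there, while Rpl10l (chr12:66284382-66284481, minus strand) and Rpl39l (chr16:10170148-10170247, plus strand) carry none. The Rps2 sequence lies at chr17:24719983-24720082 (plus strand).
Rpl32l: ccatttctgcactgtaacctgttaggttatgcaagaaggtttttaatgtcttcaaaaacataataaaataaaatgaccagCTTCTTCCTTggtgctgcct
Rpl10l: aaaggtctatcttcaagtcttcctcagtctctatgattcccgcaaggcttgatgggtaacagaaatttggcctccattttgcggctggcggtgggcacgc
Rpl39l: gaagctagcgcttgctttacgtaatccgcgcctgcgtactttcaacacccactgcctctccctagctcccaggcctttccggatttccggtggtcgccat
Rps2: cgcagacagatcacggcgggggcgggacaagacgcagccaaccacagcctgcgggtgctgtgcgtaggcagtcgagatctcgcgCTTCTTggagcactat

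Around the start, member peaks reached a similar distance upstream and downstream. For the 45 members with a single annotated start that lay in a peak in all 6 libraries, the median reach upstream was 461, 464 and 473 bp in DTR and 468, 403 and 456 bp in WT. The median reach downstream was 512, 491 and 545 bp in DTR and 516, 466 and 460 bp in WT. Over the 7253 such genes in all, the upstream medians ran from 398 to 439 bp and the downstream medians from 477 to 534 bp. Members thus had a reach close to that of other open starts in both genotypes.

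**Figure D1:**
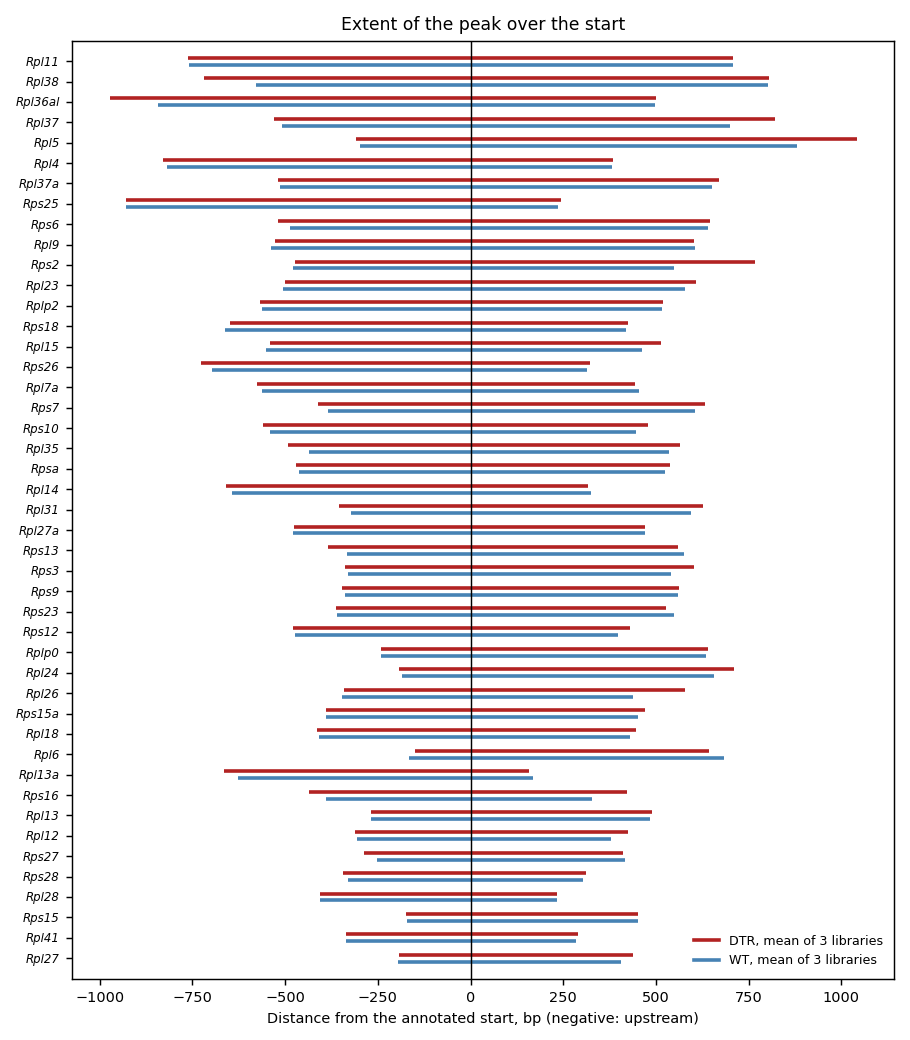
Reach of the peak over the annotated start for the 45 members with a single start that lay in a peak in all 6 libraries; the x axis is the distance from the start in bp (negative is upstream), and each bar runs between the mean edges of 3 DTR (red) or 3 WT (blue) libraries. The bars of the groups nearly coincide for most members, while, among others, Rpl5, Rpl26, Rps16 and Rps2 reach further downstream and Rpl38 and Rpl36al further upstream in DTR.

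Where they had a gene-end peak, ribosomal protein genes lay in the upper range of fold but not of width. The median fold over the 73 members was 8.80, 8.77 and 8.55 in DTR and 8.65, 8.91 and 9.12 in WT, and 56 to 59 of the 73 members exceeded the median of all genes tested in each library. The ratio of the member median to the median of all genes was 1.19 ± 0.00557 (SD, n = 3) in DTR and 1.21 ± 0.00937 in WT. Member widths had medians of 989, 975 and 1020 bp in DTR and 1021, 944 and 942 bp in WT, a ratio to all genes of 0.978 ± 0.00789 in DTR and 0.998 ± 0.0138 in WT. Members are short genes, with a median span of 3179 bp against 17491 bp for all genes. Genes tested with a span under 10000 bp had a median fold of 7.06 and a median width of 974.5 bp, the former below the member median in every library.

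**Figure D2:**
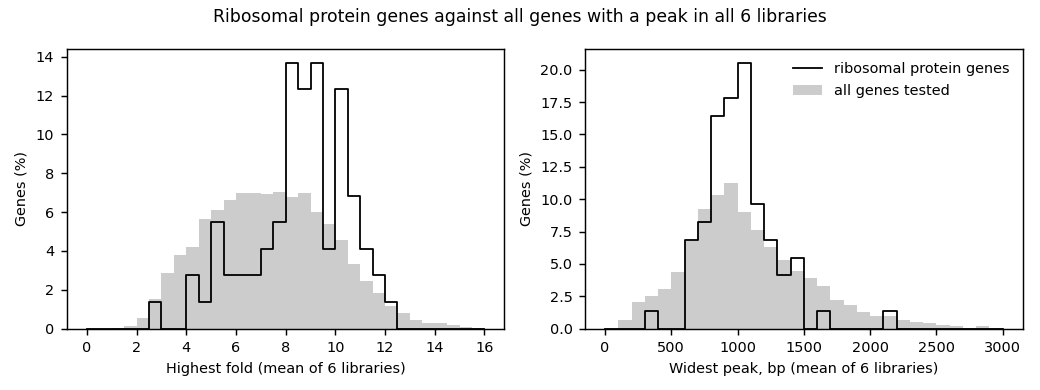
Share of genes (percent, y axis) by mean highest fold (left) and mean widest peak in bp (right) over 6 libraries, for the 73 ribosomal protein genes (line) and all 12546 genes tested (grey bars; the axes end at 16 fold and 3000 bp). The line lies to the right of the bars for fold, with a member median of 8.77 against 7.33, and overlies them for width, with 986 against 998 bp.

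By role, the 29 small-subunit genes with a peak had a median of mean folds of 9.43, the 41 large-subunit genes 8.40, and the 3 stalk genes 10.3. Mitochondrial ribosomal protein genes, a separate set of 78 whose proteins serve the organelle's own ribosome, had a peak in all 6 libraries at 75 and a median of mean folds of 9.42. A high fold was thus shared with another set of housekeeping genes, and no test was made of the difference between these sets.

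Among the stalk genes, whose proteins recruit the elongation factors, Rplp1 had the highest fold of any member, at 12.1, 11.6 and 11.7 in DTR and 11.9, 12.9 and 12.1 in WT. Rplp0, the base of the stalk, varied little, at 10.3, 10.4 and 10.2 in DTR and 10.1, 10.2 and 10.6 in WT. Rplp2 was at 8.55, 8.57 and 8.52 in DTR and 8.69, 9.31 and 8.94 in WT. All DTR values of Rplp2 lay below all WT values, whereas those of Rplp0 and Rplp1 overlapped.

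Among small-subunit genes, Rps23, whose protein sits at the decoding centre, had a fold of 12.2, 11.6 and 11.2 in DTR and 10.7, 12.2 and 11.9 in WT. Rps6 had a fold of 9.09, 8.88 and 9.20 in DTR and 9.23, 8.82 and 9.37 in WT. Rps19, the gene most often mutated in Diamond-Blackfan anaemia, had a fold of 9.64, 9.78 and 9.73 in DTR and 9.70, 10.5 and 10.9 in WT. Rps14, whose human counterpart is lost in a form of myelodysplastic syndrome, had a fold of 8.89, 8.98 and 8.45 in DTR and 8.52, 8.76 and 9.04 in WT. Groups overlapped for each of these genes. Further means were 10.2 for Rps3, which lies at the mRNA entry site, 9.48 for Rpsa, also known as the laminin receptor, and 7.92 for Rps27a, made as a fusion to ubiquitin.

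Among large-subunit genes, Rpl27 had the highest fold, with 11.1, 11.3 and 11.3 in DTR and 11.2, 12.1 and 12.1 in WT. Rpl19 had the lowest gene-end fold of any member, with 2.73, 2.71 and 2.51 in DTR and 2.66, 2.80 and 2.65 in WT. Its gene-end peak was shared with the end of Cacnb1, and a stronger peak lay inside the Rpl19 span. That stronger peak, over the annotated starts, had a fold of 8.29, 8.51 and 8.40 in DTR and 8.22, 8.14 and 8.41 in WT. Rpl18, with a mean of 4.07, also had a stronger peak inside the gene, over its annotated start, in 4 of the 6 libraries. Rpl35 had a mean of 4.38, and no stronger peak inside. Rpl5 and Rpl11, whose proteins bind the p53 ligase Mdm2 when ribosome assembly is disturbed, had means of 9.10 and 5.41. Rpl13a, known for a role in silencing inflammatory mRNAs in monocytic cells, had a mean of 5.67, and Rpl38 one of 6.81.

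**Figure D3:**
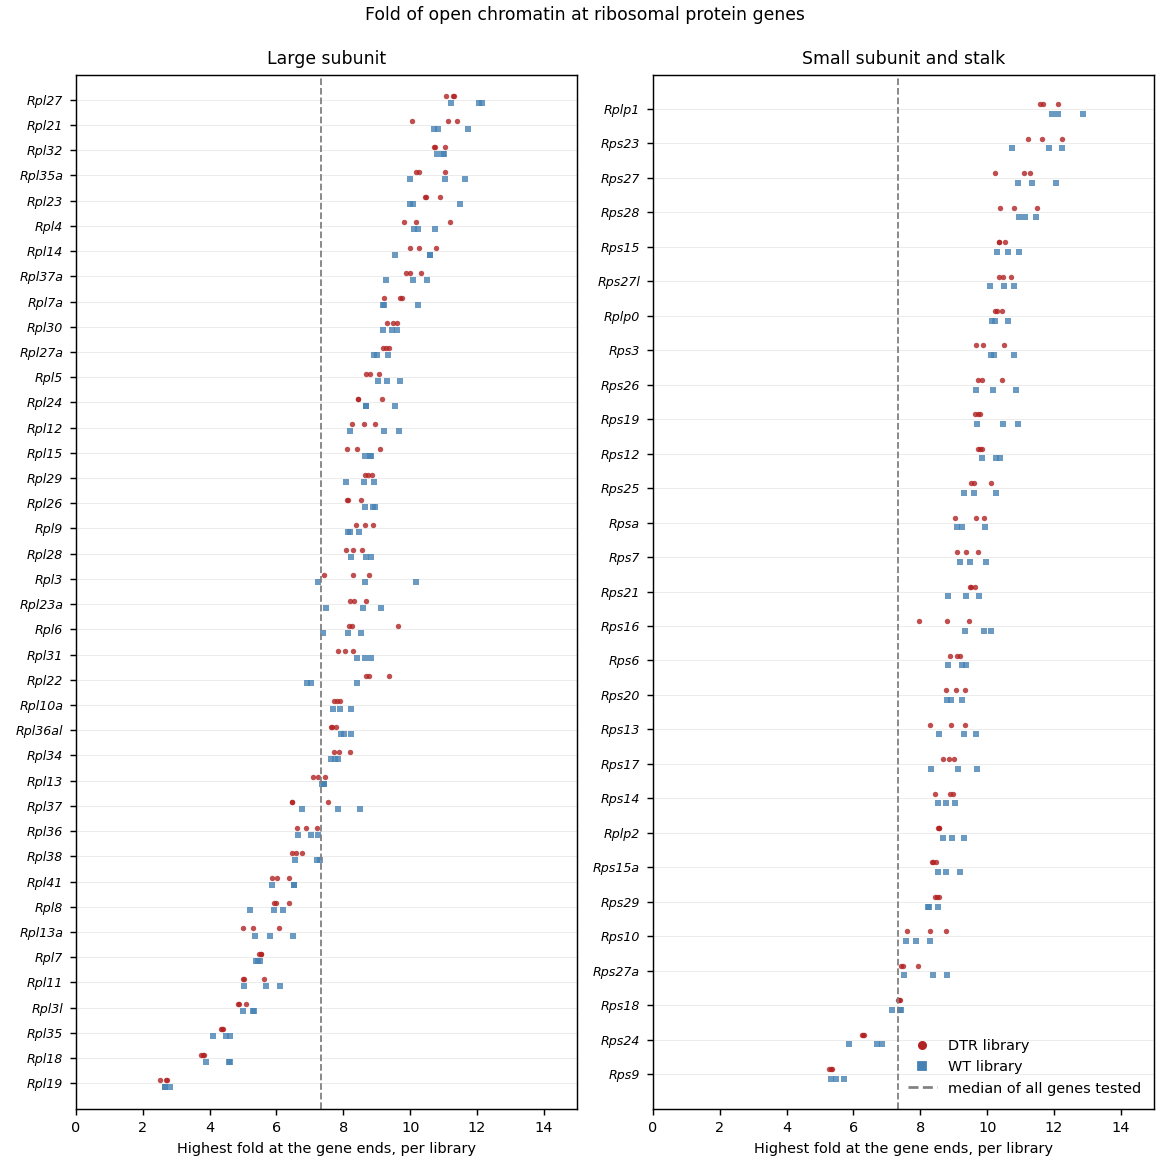
Highest fold at the gene ends (x axis, the authors' fold over background, from 0) for 69 of the 73 members, with large-subunit genes on the left and small-subunit and stalk genes on the right; each circle is a DTR library and each square a WT library, and the dashed line is the mean over libraries of the median of all genes tested. Members run from Rpl19 at a mean of 2.68 to Rplp1 at 12.0, and the spread between libraries is small beside the spread between genes. The peak over the annotated Rpl19 starts, not drawn, had a mean fold of 8.33.

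Widths ranged from a mean of 357 bp at Rpl22 to 2109 bp at Rpl7. After Rpl7 the widest were Rpl3l with 1667 bp, Rpl10a with 1470 bp and Rpl11 with 1470 bp. After Rpl22 the narrowest were Rpl27 with 616 bp, Rps15 with 626 bp and Rpl28 with 640 bp. The gene-end peak of Rpl22 lay downstream of its annotated starts. The peak over an annotated Rpl22 start was 927, 919 and 942 bp wide in DTR and 832, 831 and 923 bp in WT. Of the 73 members, 56 had 1 gene-end peak in every library, 14 had at least 2, and 3 varied between libraries. A peak shared with the end of another protein-coding gene was found at 22 of them, 30.1% against 30.9% of all genes tested. Examples are Rpl7 with Rdh10, Rpl3l with Msrb1, Rplp2 with Pidd1 and Rpl12 with Lrsam1. A snoRNA gene lay inside 27 of 78 members (34.6%), against 1.72% of all genes, with 5 inside Rpl4 and 4 each inside Rpl13a and Rpl7a, among others.

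The processed copies of these genes were mostly closed. Of 269 autosomal pseudogenes named after a member, 239 had no peak within 1 kb of either end in any library and 19 (7.06%) had one in all 6. The latter share was 7.68% for all 8884 autosomal pseudogenes. Reads from near-identical copies can be split or dropped in mapping, and how they were treated is not given in the sources used here.

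The fold did not differ detectably between DTR and WT at any member. Log2 values were centred on each library's median over all genes tested and compared with limma, with Benjamini-Hochberg adjustment over all 12546 genes. No gene passed an adjusted p of 0.05 in either direction, so 0 members were called beside a background of 0% in each direction, and the lowest adjusted p of a member was 0.44 (limma). At an unadjusted p under 0.05 were 5 members (Rpl18, Rpl22, Rpl26, Rpl31 and Rps16), which is 6.85% of 73, against 8.21% of all genes. The median DTR minus WT difference over members was -0.023 on the log2 scale, against 0.0019 over all genes, with 28 members above 0 (38.4%, against 51.5% of all genes) and 45 below. By role the median was -0.020 for large-subunit, -0.024 for small-subunit and -0.054 for stalk genes.

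Differences at single members were small and well bounded. The median standard error was 0.043, and the unadjusted 95% interval of each of the 73 members lay within 0.5 of 0 on the log2 scale. The difference itself was under 0.2 in size at 72 of 73 members. In simulated data of this size limma recovered 38 of 100 genes changed by 0.25 and 69 of 100 changed by 0.5, so a shift of the size seen at most members is not detectable gene by gene. Both sets of changed genes were present in the same simulated data, which eases the adjustment. No gene passed in the fit of the real fold values, so this recovery may overstate what that fit can detect.

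As deposited, before centring, the DTR and WT values did not overlap at 8 members. Of these, 2 were higher in DTR, Rpl22 among them (2.74% of members, against 6.4% of all genes). Rpl18, Rpl26, Rpl31, Rpl36al, Rplp2 and Rps15a were lower (8.22%, against 5.32%). After centring, 5 members were higher (6.85%, against 7.41%) and 9 lower (12.3%, against 6.6%). The smallest p that an exact permutation test of 3 against 3 libraries can give is 0.1.

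Rpl22, which is dispensable for most translation but needed for development of alpha-beta T cells, had the largest difference in fold. Its gene-end fold was 9.37, 8.69 and 8.78 in DTR and 6.90, 8.40 and 7.03 in WT. All DTR values were above all WT values, with a difference of 0.28 ± 0.079 (SE, n = 3 per group) and an adjusted p of 0.44 (limma). The direction turned with windows of 2500 bp, to -0.11, and with windows around annotated starts, to -0.12. The strongest peak in or near Rpl22 had a fold of 9.37, 9.07 and 9.18 in DTR and 10.2, 9.82 and 9.91 in WT, with every DTR value below every WT value. In 5 of the 6 libraries, all but DTR1, this was the peak over an annotated start, and the gene-end peak lay downstream of it. The gene-end peak of Rpl22, which was 310, 291 and 372 bp wide in DTR and 464, 314 and 392 bp in WT, and its strongest peak thus differed in opposite directions.

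After Rpl22 the largest positive differences were at Rpl6, Rpl8 and Rpl9. Rpl6 had a fold of 9.63, 8.25 and 8.17 in DTR and 8.13, 7.40 and 8.52 in WT, and DTR1 alone stood above all other libraries. Its difference was 0.12 ± 0.075, and those of Rpl8 and Rpl9 were 0.089 ± 0.076 and 0.070 ± 0.038. None passed the test, and the groups overlapped at all 3 genes.

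The largest negative differences were at Rpl18, Rpl37, Rps16 and Rps27a. Rpl18 had a fold of 3.75, 3.81 and 3.82 in DTR and 3.88, 4.57 and 4.62 in WT, a difference of -0.19 ± 0.066 with an adjusted p of 0.54 (limma). All Rpl18 values in DTR were below those in WT, but WT1 lay much nearer to the DTR libraries than to WT2 and WT3. Rpl37 had a fold of 6.47, 7.55 and 6.46 in DTR and 6.77, 7.85 and 8.49 in WT. Rps16 had 8.80, 9.45 and 7.96 in DTR and 9.34, 9.91 and 10.1 in WT. Rps27a had 7.49, 7.94 and 7.42 in DTR and 7.51, 8.37 and 8.79 in WT. In each of these 3 genes the groups overlapped, and the highest value was in WT3.

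Rpl26 and Rpl31 were lower in DTR with smaller differences and tighter groups. Rpl26 had a fold of 8.51, 8.13 and 8.11 in DTR and 8.65, 8.89 and 8.95 in WT, a difference of -0.091 ± 0.032. Rpl31, near the tunnel exit, had 8.05, 8.29 and 7.84 in DTR and 8.42, 8.65 and 8.83 in WT, a difference of -0.092 ± 0.031. The adjusted p was 0.54 for Rpl26 and 0.53 for Rpl31 (limma).

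**Figure D4:**
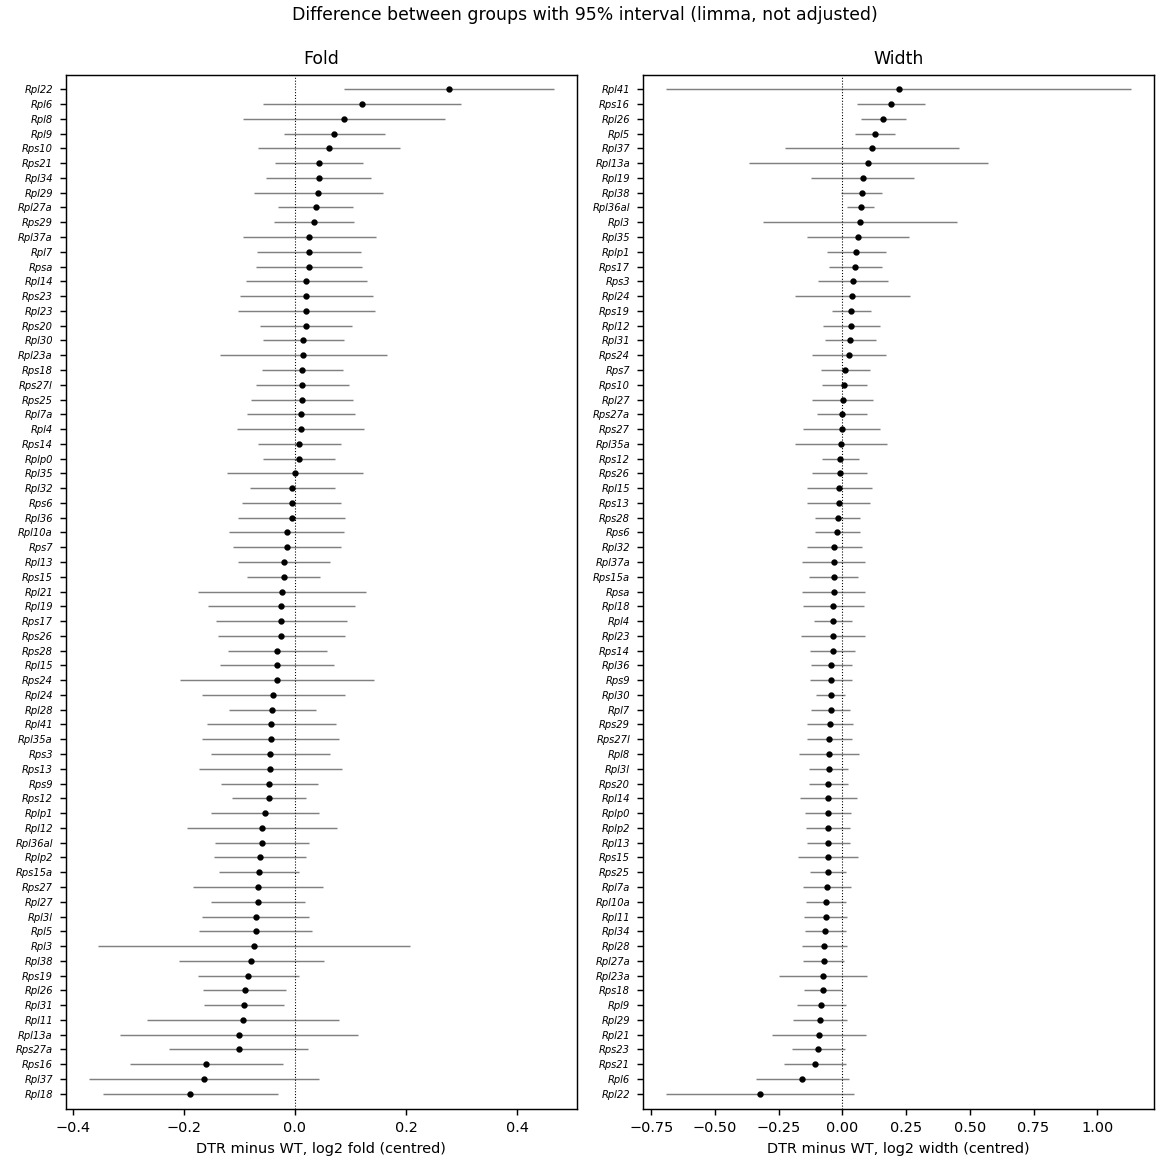
DTR minus WT difference of the centred log2 fold (left) and log2 width (right) for 69 of the 73 members, sorted by difference; points are limma estimates from 3 libraries per group and bars their unadjusted 95% intervals. Fold differences run from -0.19 at Rpl18 to 0.28 at Rpl22 and width differences from -0.32 at Rpl22 to 0.22 at Rpl41, whose interval is the widest; no member passed the adjusted threshold.

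Peak width likewise called no member. Over all genes, 19 (0.151%) were wider and 2 (0.0159%) narrower in DTR at an adjusted p of 0.05 (limma, Benjamini-Hochberg over 12546 genes), and the lowest adjusted p of a member was 0.54. These counts depended on the fit: leaving out 1 library gave 25 to 106 wider (106 without WT1) and 1 to 8 narrower (8 without DTR3), the replicate block 1 and 0, genes with unshared peaks 8 and 1, and no centring 40 and 4. At an unadjusted p under 0.05 were 5 members (Rpl26, Rpl36al, Rpl5, Rps16 and Rps18), 6.85% against 6.12% of all genes. The median difference over members was -0.035, against -0.034 over all genes. Without centring these medians turned to 0.032 and 0.034. The median gene-end width as deposited was higher in DTR on average, but the groups overlapped, with WT1 at 1010 bp and DTR2 at 992 bp. The member median lay beside that of all genes under both scalings.

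As deposited, widths did not overlap between the groups at 12 members, all wider in DTR, among them Rpl26, Rpl27, Rpl31, Rpl36al, Rpl38, Rpl5, Rplp1, Rps12, Rps16, Rps24 and Rps6. This is 16.4% of members against 14.3% of all genes, and 0 members against 1.11% of all genes were narrower. Centring reversed this split, with 5 members wider (6.85%, against 3.31%) and 12 narrower (16.4%, against 11%).

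In several of these genes the groups lay apart at 1 edge of the peak and close together at the other. These examples were chosen after their values were seen, none passed the test after centring, and how often other genes show this was not counted. Rpl5 had a peak of 1345, 1339 and 1375 bp in DTR and 1185, 1180 and 1180 bp in WT. Its downstream edge lay 1032, 1039 and 1057 bp from the start in DTR and 885, 880 and 880 bp in WT, while the mean upstream edges, at 309 and 299 bp, were 10.3 bp apart. The centred difference in Rpl5 width was 0.13 ± 0.032 with an adjusted p of 0.54 (limma). Without centring it was 0.20 with an adjusted p of 0.020, which made Rpl5 the only member called under any of the alternatives tried.

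Rpl26 showed the same arrangement. It was 905, 905 and 957 bp wide in DTR and 796, 789 and 778 bp in WT, with a difference of 0.16 ± 0.036. Its downstream edge lay 567, 567 and 604 bp from the start in DTR and 443, 438 and 438 bp in WT, a mean gap of 139.7 bp, while the upstream edges differed by 5 bp. In these data the peak of Rpl26 was thus wider and its fold lower in every DTR library than in any WT library.

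At Rpl38 and Rpl36al the edge that differed was upstream. Rpl38 was 1540, 1499 and 1537 bp wide in DTR and 1383, 1362 and 1399 bp in WT, and its upstream edge lay 733, 692 and 730 bp from the start in DTR and 576, 561 and 598 bp in WT. Rpl36al was 1482, 1429 and 1516 bp wide in DTR and 1388, 1302 and 1332 bp in WT, with upstream edges at 979, 933 and 1007 bp against 855, 836 and 836 bp. The opposite edges differed by 4 bp at Rpl38 and 4.33 bp at Rpl36al on average. Neither width passed the test, and the Rpl36al peak also touched the end of its neighbour Mgat2.

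Rps16 was 825, 817 and 938 bp wide in DTR and 725, 716 and 712 bp in WT, a difference of 0.19 ± 0.054. Its downstream edge lay 428, 420 and 418 bp from the start in DTR and 328, 323 and 329 bp in WT. Its upstream edge lay at 396, 396 and 519 bp in DTR and 396, 392 and 382 bp in WT, so that DTR3 alone stood apart at that edge. At Rps2, outside the fit because it had no gene-end peak, the downstream edge of the peak over the start lay at 792, 770 and 744 bp in DTR and 728, 466 and 451 bp in WT. The WT1 value of Rps2 was close to those in DTR.

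The member with the largest positive width difference was also the one with the largest spread. Rpl41, which encodes the shortest ribosomal protein, was 884, 1697 and 1718 bp wide in DTR and 1720, 1000 and 824 bp in WT, so that each group held libraries of both kinds. The Rpl41 difference of 0.22 ± 0.37 turned to -0.049 around annotated starts. The peak over the annotated Rpl41 start was not the widest one. It was steady, at 634, 622 and 625 bp in DTR and 629, 617 and 612 bp in WT. Width ratios between the widest and narrowest library above 1.5 occurred at 5 members, among them Rpl41, Rpl13a, Rpl22 and Rpl3, which is 6.85% against 15.4% of all genes.

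**Figure D5:**
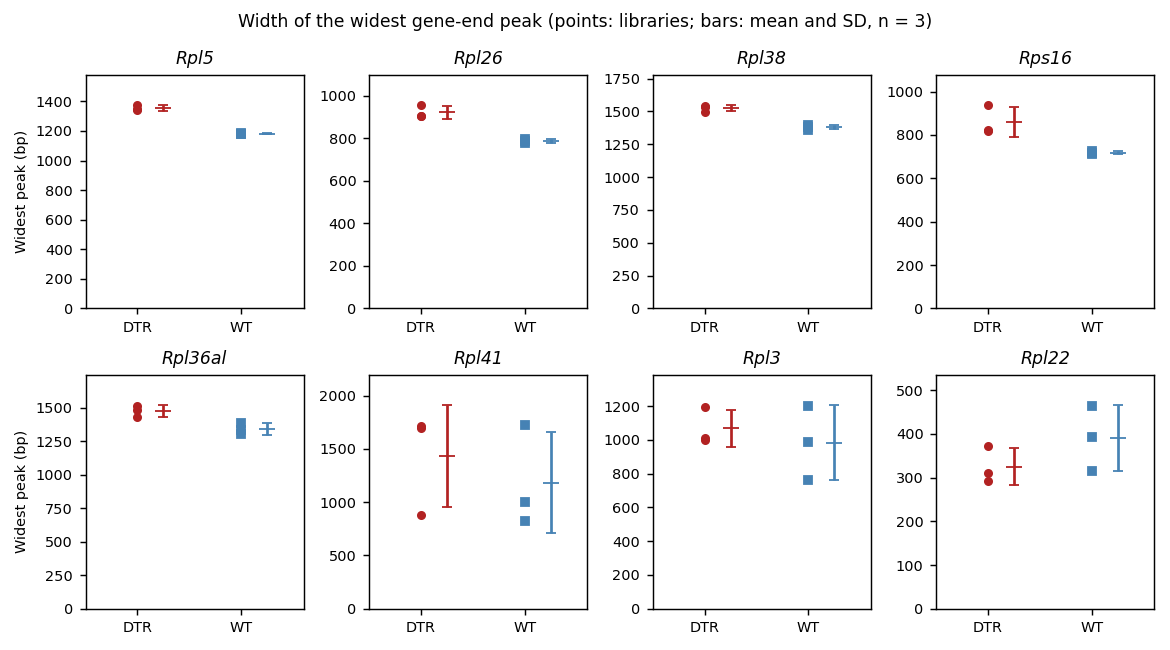
Width of the widest gene-end peak (bp, y axis from 0) in each DTR (circles) and WT (squares) library for 8 members, with the mean and SD of 3 libraries beside the points. Groups do not overlap at Rpl5, Rpl26, Rpl38, Rps16 and Rpl36al, whereas Rpl41, Rpl3 and Rpl22 vary within both groups.

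The most negative width differences were at Rpl22 with -0.32 ± 0.15, Rpl6 with -0.16 ± 0.073, Rps21 with -0.11 ± 0.049 and Rps23 with -0.096 ± 0.042. The direction at Rpl22 turned to 0.042 with windows of 2500 bp and to 0.043 around annotated starts. Rps21 was 908, 909 and 940 bp wide in DTR and 1052, 885 and 907 bp in WT, with WT1 alone above the rest. Rpl6 and Rps23 were also widest in WT1, at 962 and 979 bp. All 4 adjusted p-values were 0.54 (limma).

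Width and fold moved against each other between libraries. At 67 of 73 members (91.8%) the fold was lower in the library with the widest peak than in the library with the narrowest, against 75.6% of all genes. Rpl3 shows this: its peak was 998, 1009 and 1195 bp wide in DTR and 1202, 762 and 989 bp in WT, with folds of 8.29, 8.77 and 7.42 in DTR and 7.23, 10.2 and 8.66 in WT. Members were most often widest in DTR3 (33 members) or WT1 (22), and most often narrowest in WT2 (34) or WT3 (26). Both groups therefore held libraries with wide member peaks, and WT1 resembled DTR1 and DTR3 more than WT2 and WT3 in this respect; its part in the differences between groups was not tested beyond leaving it out.

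Between libraries the members were steady. The ratio of the highest to the lowest library had a median of 1.12 for fold, against 1.14 for all genes, and of 1.12 for width, against 1.13. The coefficient of variation within a group had a median over members of 3.0% in DTR and 4.34% in WT for fold, and 2.32% and 3.09% for width.

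Other genes of the translation machinery were taken from lists of names, and none of their genes passed the test for fold or width. Of 14 elongation factor and other TOP genes, all 14 had a peak in all 6 libraries, with a median of mean folds of 8.29 and a median fold difference of 0.011. Eef2, which moves the ribosome along the mRNA, had a fold of 10.2, 10.8 and 10.1 in DTR and 10.7, 10.8 and 11.3 in WT. Of 22 ribosome biogenesis genes, 21 had a peak in all 6 libraries, with a median of mean folds of 8.86 and a median difference of -0.017.

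Within that list Polr1b, the second-largest subunit of RNA polymerase I, had the lowest adjusted p for fold, 0.29 (limma), with values of 12.0, 11.2 and 10.9 in DTR and 13.4, 14.5 and 14.0 in WT. It was named after its values were seen. Its peak was 656, 640 and 738 bp wide in DTR and 516, 455 and 576 bp in WT, so that both measures separated the groups without passing the adjusted threshold. Of 14 genes of growth control of translation, such as Mtor, 13 had a peak in all 6 libraries, and their median fold difference was 0.016. For the mitochondrial ribosomal protein genes the median fold difference was 0.015 over 75 genes. The 4 X-linked ribosomal protein genes all had a peak in all 6 libraries. The 6 cytosolic genes outside the rule all had one as well, among them Fau, Rack1, Rps3a1, Rpl22l1 and Rpl7l1, with a median of mean folds of 9.57.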

How the data were processed

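The members and lists were chosen with earlier results of these data known. ATAC-seq libraries were sequenced paired-end, per the labels' protocols. The submitters' processing notes name fastp, Bowtie2 2.4.4, Bowtie and MACS2; the genome build is not given in the sources used here. The authors deposited 1 broad peak list per library, with a peak score, a fold over background (a ratio) and p and q values as −log10. No counts are given, so depth, and the precision it sets, is unknown. The lists were matched to a GRCm38.p6 gene table: peaks lay within 100 bp of a gene end for 34.8% to 61.6% of genes by chromosome, and for 4.04% to 14.9% after a shift of 5 kb.

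For each gene and library, the highest fold and the widest peak within 1 kb of either gene end were taken, put on a log2 scale and centred on the median over genes with a peak in all 6 libraries. DTR (n = 3) and WT (n = 3) were compared with limma 3.58.1 (R 4.3.3; trend), with Benjamini-Hochberg adjustment over all 12546 genes and a threshold of 0.05; the script was tested on simulated data. Presence, medians, promoters and motifs were described without a test. Members named were the 4 with the largest difference each way, the 4 highest and lowest in level and width, those without a gene-end peak, and 19 fixed by name, of which Rps4l is not in the table; others are stated as chosen later. Alternatives were other windows, peak thresholds, overlaps, centring, a replicate block and leaving out each library; windows around starts and genes with unshared peaks were added after seeing the data. Some genes are not reported here by name, though they stay in the fits, counts and medians.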

Additional observations from a re-analysis of the deposited data

How the results depend on the processing

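Of 599 values under 18 alternative settings, 549 gave the same call and direction, or a value near the reported one. Among the 549 were 307 values of single members, counted as the same if direction and call held, whatever their size. No member was called in the main fit, so this count says little about how far single values moved. Depth is unknown, and limma with 3 libraries a group misses many small changes. For fold, no gene was called except with 1 library left out: 0 to 8 higher and 0 to 7 lower, the highest of each without WT1, and the member median then ran from -0.031 to -0.012. For width, leaving out 1 library gave 25 to 106 genes wider (106 without WT1, 42 without DTR2, 31 without DTR1) and 1 to 8 narrower (8 without DTR3). Without centring, 40 genes were wider and 4 narrower, 1 member was called (Rpl5, 0.20) and the member median was 0.032. The narrower count was 1 with windows of 500 bp, with a q of at most 1e-05, with lists of equal length, with robust empirical Bayes and around annotated starts. Genes with unshared peaks gave 8 wider and 1 narrower. Whether the library numbers pair the samples cannot be told from the correlations of deviations. Same-numbered deviations correlated by 0.025, 0.13 and -0.052 for fold and -0.0047, 0.077 and -0.073 for width. Differently numbered ones ran from -0.17 to 0.16 for fold and from -0.12 to 0.13 for width. With the replicate block, 1 gene was wider and 0 narrower, and no member was called. Genes with a peak in DTR only, 28, ran from 40 to 50, and in WT only, 4, from 6 to 17, with 1 library left out; with lists of equal length they were 14 and 20, around starts 16 and 1, and with a q of at most 1e-05 WT-only genes were 1. The ratio of the member median fold to that of all genes fell to 1.17 with windows of 2500 bp and to 1.18 with a q of at most 1e-05. Single members that turned were Rpl22 in fold (-0.11 with 2500 bp, -0.12 around starts) and in width (0.042 and 0.043), and Rpl41 in width (-0.049 around starts). The cause of these changes was not tested.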
